A study of Mus with 18 samples.

Results

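Caffeic acid and its ester with quinic acid, chlorogenic acid, are plant phenols with a catechol ring. Oxidised catechols form quinones, which react with thiols such as the side chain of cysteine, and this gives cysteine adducts. The comparison described here set a cysteine adduct of chlorogenic acid (CGACys) against a cysteine adduct of caffeic acid (CACys) in macrophage-like cells stimulated with lipopolysaccharide (LPS). From the names of the parent acids the 2 adducts differ by the quinic acid ester. The labels do not state where cysteine is bound. The libraries were chosen by their treatment labels, which gave 3 CGACys and 3 CACys libraries of the 18 in the series.

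The cells were RAW264.7, an established mouse line that grows as macrophage-like cells. Every library of both adduct groups came from cells given LPS at 1 µg/mL together with 100 µM of the adduct, and RNA was taken after 6 h. The dose, the time and the LPS were therefore matched, and 1 pair of adducts was compared. Groups of 3 libraries with LPS and 100 µM caffeic acid (CA), LPS and 100 µM chlorogenic acid (CGA), and LPS alone served for reference, and a further group of 3 had no LPS. No group received an adduct without LPS, or LPS with cysteine alone. Nothing in the labels says that the replicates of a group were grown separately, and the p-values therefore speak only to the spread among these libraries, which may be technical.

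LPS is a cell wall component of Gram-negative bacteria. Macrophages sense it through Toll-like receptor 4 with the co-receptor CD14, which switches on inflammatory genes through NF-kB and interferon beta through IRF3. Interferon then induces a broad set of antiviral genes in the same cells. Sterol synthesis in macrophages is run by the transcription factor SREBP2 and turned down when sterols accumulate, and electrophiles such as quinones are known to activate NRF2, which induces antioxidant and conjugating enzymes.

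The adduct libraries held 17461616 to 20888157 counts. Counts were tested for 13251 genes in 1 model of all 18 libraries, and a gene is called here at an adjusted p of 0.05 or less. Levels are CPM, read counts scaled to library size and a normalization factor, and differences are log2 values of CGACys minus CACys with their standard error (SE). On the first principal component of the 6 adduct libraries, which held 24.8% of the variance, all CACys libraries had negative and all CGACys libraries positive scores. CACys replicate 1 stood at the edge of its group, with 1.36% of its counts in mitochondrial genes against 1.52% and 1.63% in its fellow replicates. Replicate 2 of the CA group stood apart from the other LPS libraries. It is outside the adduct comparison but adds to the shared estimate of spread, and without it 629 genes in place of 239 were called between the adducts, 234 of them in common.

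Between the adducts 239 of 13251 genes were called, which is 1.80% of those tested. In the CGACys libraries 135 of them (1.02% of tested genes) were higher and 104 (0.785%) lower. The differences were small: the median fold over the called genes was 1.23, 17 genes (0.128%) were called at 1.5-fold or more, and 3 (0.0226%) at 2-fold or more. All 239 called genes had CGACys libraries that did not overlap the CACys libraries, as did 21.5% of all tested genes. Most genes were measured tightly enough to bound the difference, since the 95% interval lay within 1.5-fold either way for 9823 genes (74.1%). The median log2 difference over all tested genes was 0.0027. The count of called genes was 157 without CACys replicate 1, 88 without CACys replicate 3, 87 without CGACys replicate 1 and 95 without CGACys replicate 2.

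**Figure D1:**
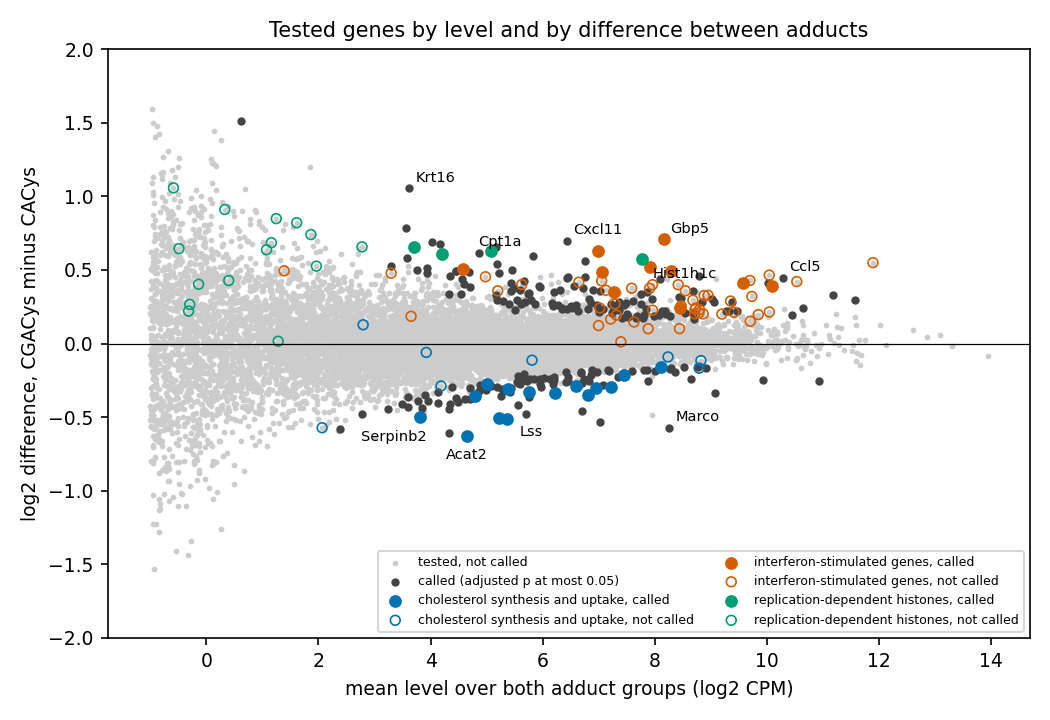
Each point is a tested gene, placed by its mean level over the 6 adduct libraries (log2 CPM, x axis) and its log2 difference, CGACys minus CACys (y axis); black points are called, and blue, orange and green mark cholesterol, interferon-stimulated and histone genes, filled where called. The called cholesterol genes all lie below 0 and the called interferon-stimulated and histone genes all above it; 746 tested genes and 1 called gene lie outside the axes.

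Cholesterol synthesis was the group of genes with the most members called. The gene lists used here were chosen with earlier results of these data known. A list count set beside the share of all tested genes is therefore no independent test. Of 23 tested genes of cholesterol synthesis and uptake (25 listed), 15 were lower with CGACys and none was higher, where 0.785% of all tested genes were called lower. The median log2 difference of the list was -0.30, and 22 of its 23 members had a negative value. The 3 libraries of each side did not overlap for 21 of the 23, where 10.4% of all tested genes were lower without overlap. The called members ran from the first condensation of acetyl-CoA to the last reduction of the sterol ring, with gaps. Of the 23 members 8 were not called, and these included enzymes of the pathway.

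Acat2 encodes the cytosolic thiolase that condenses acetyl-CoA at the entry of the pathway (ENSMUSG00000023832, chromosome 17, 12943042 to 12960725, build GRCm38.p6). Its level was 29.7, 32.2 and 29.5 CPM in the CACys libraries and 19.7, 20.6 and 18.8 CPM in the CGACys libraries, against 43.9, 39.8 and 40.2 CPM with LPS alone. Every CGACys library lay below every CACys library, and those lay below LPS alone. The gene was 1.55-fold lower with CGACys (log2 difference -0.63, SE 0.068, adjusted p = 3.14e-06). Hmgcs1, which makes HMG-CoA, differed less, with 197, 184 and 184 CPM under CACys and 167, 163 and 157 CPM under CGACys (log2 difference -0.21, SE 0.053, adjusted p = 0.0301).

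The mevalonate part of the pathway turns mevalonate into the isoprenoid units from which sterols are built. Pmvk, the phosphomevalonate kinase gene (ENSMUSG00000027952, chromosome 3, 89454541 to 89469014), measured 17.9, 16.7 and 14.6 CPM with CACys and 11.2, 11.6 and 11.9 CPM with CGACys (log2 difference -0.50, SE 0.10, adjusted p = 0.00668). Mvd, the mevalonate diphosphate decarboxylase gene (ENSMUSG00000006517, chromosome 8, 122433596 to 122443422), measured 42.9, 45.5 and 42.2 CPM with CACys and 30.3, 30.1 and 31.4 CPM with CGACys (log2 difference -0.51, SE 0.063, adjusted p = 1.87e-05). Neither gene's groups overlapped, and for Mvd the CGACys libraries also lay below the LPS libraries, at 45.9 to 48.9 CPM. Idi1, which isomerises the isoprenoid unit, was lower too (log2 difference -0.33, SE 0.056, adjusted p = 0.00112). Fdps, which joins these units, had a log2 difference of -0.57 but a low level and a wide SE of 0.18, and was not called (adjusted p = 0.0943). Pmvk was not called without CGACys replicate 1 (adjusted p = 0.0527).

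The sterol part of the pathway begins with squalene. Fdft1, the squalene synthase gene, measured 79.9, 82.6 and 87 CPM with CACys and 65.5, 66.2 and 65.9 CPM with CGACys (log2 difference -0.34, SE 0.052, adjusted p = 0.000479). Sqle, which encodes squalene epoxidase, showed a smaller difference (log2 difference -0.16, SE 0.041, adjusted p = 0.0316). Lss, which closes the sterol rings to lanosterol (ENSMUSG00000033105, chromosome 10, 76531565 to 76557139), measured 50.4, 46.1 and 49.5 CPM with CACys and 32.3, 33.3 and 36.6 CPM with CGACys. The highest CGACys library of Lss was well under the lowest CACys library, and the LPS libraries lay at 52.5 to 54.1 CPM. Lss was 1.43-fold lower with CGACys (log2 difference -0.52, SE 0.063, adjusted p = 1.87e-05). Cyp51, the lanosterol demethylase gene (ENSMUSG00000001467, chromosome 5, 4080674 to 4104697), measured 131, 121 and 126 CPM with CACys and 101, 94.9 and 100.2 CPM with CGACys. Its CACys libraries lay within the range of LPS alone or close to it, at 126 to 131 CPM with LPS, and its CGACys libraries below both (log2 difference -0.35, SE 0.049, adjusted p = 9.22e-05). The later enzymes Msmo1, Nsdhl, Hsd17b7 and Dhcr7 were all lower with CGACys, by log2 differences of -0.30, -0.28, -0.30 and -0.36.

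Around the enzymes, Insig1, which holds the SREBP escort complex in the endoplasmic reticulum, was lower with CGACys at 88.2, 89.5 and 82.9 CPM against 109, 107 and 103 CPM (log2 difference -0.29, SE 0.054, adjusted p = 0.00271). Stard4, a sterol carrier gene, was lower as well (log2 difference -0.31, SE 0.063, adjusted p = 0.00663). Srebf2, which encodes SREBP2, measured 464 to 474 CPM with CACys and 413 to 424 CPM with CGACys and missed the threshold (log2 difference -0.17, adjusted p = 0.0524). These individual sterol genes other than Acat2, Lss, Mvd, Cyp51 and Pmvk were chosen for mention after their values were seen. With 1 adduct library left out the number of members called lower was 10 (without CGACys replicate 1) to 14. Lost calls were followed gene by gene only for Acat2, Lss, Mvd, Cyp51 and Pmvk, of which Pmvk alone lost its call. Which other sterol genes lost theirs is not given here.

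The parent acids, which share no library with the adducts, gave no call for this list in either direction (CGA minus CA, median log2 difference 0.09). The difference between adducts minus that between parents was called for 14 of the 23, all negative, where 2.18% of all tested genes were called, 1.09% positive and 1.09% negative. Beside LPS alone, 16 members were lower with CGACys and none higher, where 13% of all tested genes were lower and 16.1% higher. With CACys 1 was lower and 2 were higher, where 5.75% of all tested genes were lower and 8.51% higher. Both counts rest on the same 3 LPS libraries.

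**Figure D2:**
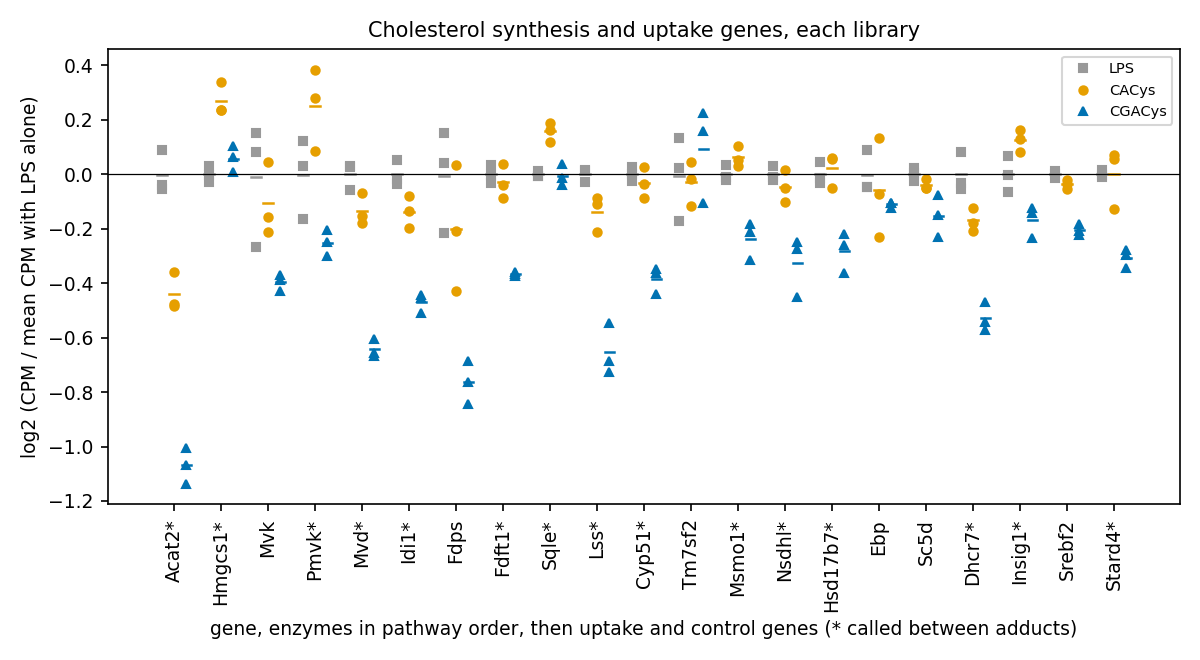
Levels of 21 of the 23 tested cholesterol genes in each library with LPS alone (grey squares), LPS and CACys (orange circles) and LPS and CGACys (blue triangles), as log2 of CPM over the mean CPM with LPS alone (y axis), genes in pathway order (x axis), with short bars at group means. The CGACys triangles lie under the CACys circles without overlap for 19 of these 21 genes; asterisks mark the 15 called.

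Fatty acid genes went the same way in part. Of 15 tested genes of fatty acid synthesis and desaturation, 3 were lower with CGACys, where 0.785% of all tested genes were, and the list's median was -0.19. The count was 0 without CGACys replicate 1. Scd2, a stearoyl-CoA desaturase gene (ENSMUSG00000025203, chromosome 19, 44293676 to 44306864), measured 173, 157 and 134 CPM with CACys and 107, 112 and 101 CPM with CGACys, against 108, 103 and 105 CPM with LPS alone. The CACys libraries were the high ones here, and the CGACys libraries lay at the level of LPS alone (log2 difference -0.53, SE 0.11, adjusted p = 0.0193). The polyunsaturated fatty acid desaturases Fads2 and Fads1 had log2 differences of -0.38 and -0.27 (adjusted p = 0.0117 and 0.0157). Fasn, the fatty acid synthase gene, did not overlap between groups, at 269 to 321 CPM with CACys and 194 to 214 CPM with CGACys, but was not called (log2 difference -0.48, SE 0.14, adjusted p = 0.120). Here and below, replicates named together were left out singly, never jointly. All 3 calls were lost with some library left out: Scd2 without CACys replicates 1 and 2 or CGACys replicates 1, 2 and 3 (adjusted p 0.0537 to 0.0909), Fads2 without CACys replicate 2 or CGACys replicate 1 (adjusted p 0.0598 to 0.122) and Fads1 without CACys replicates 2 and 3 or CGACys replicates 1 and 2 (adjusted p 0.0743 to 0.111).

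Cpt1a, which encodes the enzyme that carries long-chain fatty acids into mitochondria for oxidation (ENSMUSG00000024900, chromosome 19, 3322326 to 3385735), went the opposite way. It measured 27.3, 31.5 and 31.8 CPM with LPS alone, 45, 47.9 and 42.4 CPM with CACys and 70.0, 68 and 66.1 CPM with CGACys. The 3 groups formed 3 separate steps, with CGACys highest and 1.51-fold above CACys (log2 difference 0.59, SE 0.071, adjusted p = 1.55e-05). It was the only one of 19 tested fatty acid oxidation genes called between the adducts, where 1.8% of all tested genes were. The median of that list was 0.01.

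The interferon-stimulated genes called between the adducts were higher with CGACys. All 55 genes of the list had a positive log2 difference, the median was 0.33, and 10 were called higher, where 1.02% of all tested genes were. The 3 libraries of each side did not overlap for 39 of the 55, where 11.2% of tested genes were higher without overlap. For 33 of the 55 the interval lay within 1.5-fold either way. The number called moved when single libraries were left out. It was 3 without CACys replicate 3, 3 without CGACys replicate 1 and 3 without CGACys replicate 2. With the replicate number as a term in the model it was 26. Over all tested genes same-numbered adduct libraries were not found to vary together. Many genes of this list, such as Ifit1 and Gbp3, had replicate 3 lowest with LPS alone, CACys, CGA and CGACys, but not with CA. A replicate effect shared by these genes was not tested.

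The guanylate-binding proteins are interferon-induced GTPases that attack vacuoles of intracellular pathogens, and 4 of them were among the calls. Gbp5 (ENSMUSG00000105504, chromosome 3, 142496934 to 142522344) measured 150.1, 159.8 and 133 CPM with LPS alone, 232, 232 and 191 CPM with CACys and 366, 376 and 328 CPM with CGACys. The 3 groups did not overlap, and CGACys was 1.63-fold above CACys (log2 difference 0.71, SE 0.094, adjusted p = 0.000798). Gbp4 (ENSMUSG00000079363, chromosome 5, 105115767 to 105139586) measured 106, 107 and 85 CPM with CACys and 156, 159 and 145 CPM with CGACys (log2 difference 0.63, SE 0.085, adjusted p = 0.000342). Gbp3 measured 861 to 1022 CPM with CACys and 1188 to 1271 CPM with CGACys (log2 difference 0.39, SE 0.073, adjusted p = 0.00716). Gbp2 measured 582 to 698 CPM with CACys and 834 to 910.2 CPM with CGACys (log2 difference 0.41, SE 0.10, adjusted p = 0.0407). The guanylate-binding protein genes are close relatives, so a share of reads may be split between them.

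The other called members were Mx1, Mx2, Ddx60, Ifi205, Herc6 and Parp9. Only Gbp3, Gbp4 and Gbp5 stayed called when CACys replicate 3, CGACys replicate 1 or CGACys replicate 2 was left out singly. Gbp2 and the members named here were not called in those runs. Ddx60, a helicase gene of antiviral sensing, measured 114, 123 and 96.3 CPM with CACys and 159, 163 and 143 CPM with CGACys (log2 difference 0.48, SE 0.10, adjusted p = 0.0161); it was not called without CACys replicate 3 or CGACys replicates 1 and 2 (adjusted p 0.0696 to 0.0888). Mx1 and Mx2, dynamin-like antiviral genes that the RefSeq table lists as transcribed pseudogenes, had log2 differences of 0.52 and 0.49 (adjusted p = 0.0253 and 0.0180). Several well-known members did not pass. Rsad2, the viperin gene, measured 2641 to 3323 CPM with CACys and 4119 to 4783 CPM with CGACys without overlap, and its SE of 0.14 left it uncalled (log2 difference 0.55, adjusted p = 0.0795). Ifit1, which binds viral RNA, showed the same picture at 750.4, 774 and 599 CPM against 1028, 971 and 858 CPM (log2 difference 0.43, 95% interval 0.16 to 0.70, adjusted p = 0.117). Isg15, a ubiquitin-like modifier, had a log2 difference of 0.33 (adjusted p = 0.0874). Gbp2, Mx1, Mx2, Ifi205, Herc6, Parp9, Rsad2 and Isg15 were chosen for mention after their values were seen.

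Genes of the interferon system itself gave a single call. Ifnb1, the interferon beta gene, was low in both groups at 0.655, 0.790 and 0.887 CPM with CACys and 0.828, 0.938 and 1.15 CPM with CGACys, which overlapped, and the interval of its log2 difference ran from -0.72 to 1.33. Of 18 tested interferon ligands, receptors, STATs and IRFs, Irf2 alone was called, where 1.8% of all tested genes were. Irf2, a transcription factor that binds interferon response elements, measured 86.5, 86.3 and 73.1 CPM with CACys and 113, 108 and 102 CPM with CGACys (log2 difference 0.39, SE 0.069, adjusted p = 0.00161). Irf7, an interferon-induced regulator of interferon genes, had a log2 difference of 0.18 and was not called (adjusted p = 0.488); it was chosen after its values were seen. Of 20 genes of MHC class I presentation and the immunoproteasome 2 were higher, where 1.02% of all tested genes were: Tapbpl, a peptide editor for class I molecules (log2 difference 0.36, SE 0.067, adjusted p = 0.00256), and H2-Q4, a class Ib molecule with near-identical relatives (log2 difference 0.22, SE 0.055, adjusted p = 0.0313), which was not called without CACys replicates 1 and 3 or CGACys replicates 1, 2 and 3 (adjusted p 0.0704 to 0.184).

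No interferon-stimulated gene was called between the parent acids, where the median of the list was 0.14. The difference between adducts minus that between parents was called for none of the 55 either, with a median of 0.18. The larger adduct difference is therefore not separated by test from the parent difference for any of these genes. Beside LPS alone, 54 of the 55 were higher with CGACys, where 16.1% of all tested genes were, with a median log2 difference of 0.74. With CACys 41 were higher, where 8.51% of all tested genes were, with a median of 0.42. Both rest on the same LPS libraries.

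**Figure D3:**
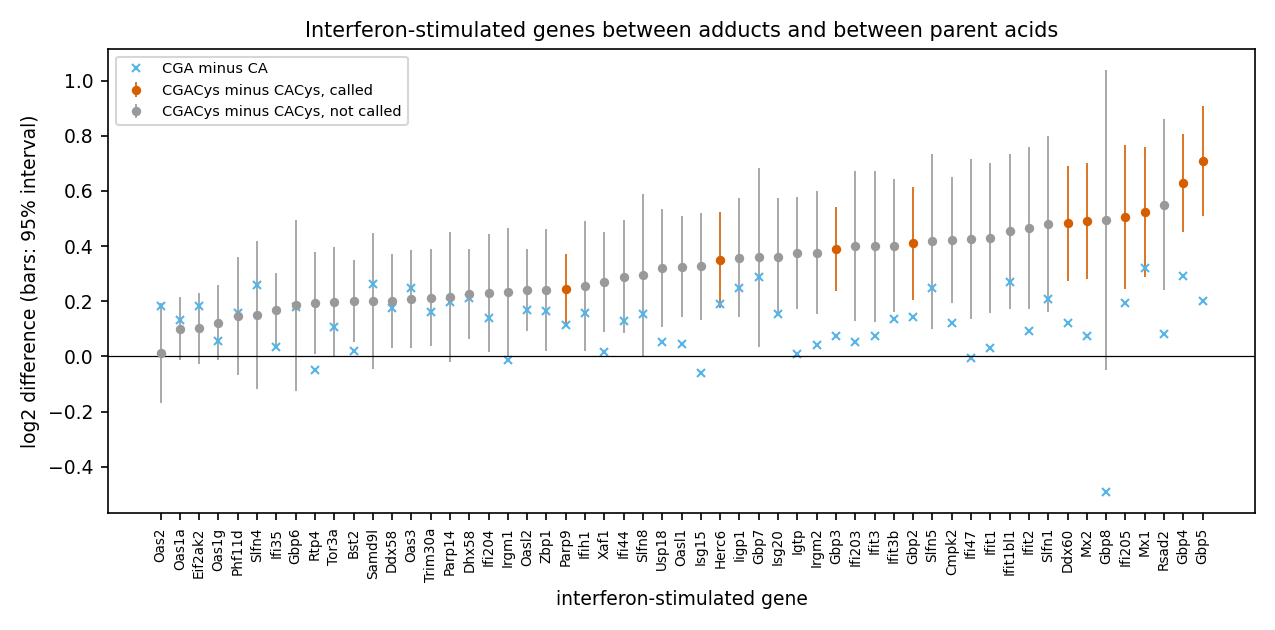
The 55 interferon-stimulated genes (x axis) ordered by their log2 difference, CGACys minus CACys (y axis; circles with 95% intervals, orange where called, grey where not), with the log2 difference CGA minus CA as blue crosses. All 55 circles lie above 0, the 10 called ones from Parp9 to Gbp5, and most crosses lie lower than their circles.

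Of 3 tested interferon-induced CXC chemokine genes 1 was called, higher with CGACys. Of 3 tested neutrophil-attracting CXC chemokine genes 1 was called, lower. Of all tested genes 1.02% were called higher and 0.785% lower. Cxcl11, an interferon-induced chemokine for activated T cells (ENSMUSG00000060183, chromosome 5, 92359544 to 92363296), which the RefSeq table lists as a transcribed pseudogene, measured 30.2, 38.4 and 29.1 CPM with LPS alone, 65, 71.9 and 59.9 CPM with CACys and 117, 109 and 93.9 CPM with CGACys. It rose stepwise over the 3 groups without overlap, and CGACys was 1.62-fold above CACys (log2 difference 0.70, SE 0.10, adjusted p = 0.000479). Cxcl10, of the same family, was not called at 498, 505 and 395 CPM with CACys and 685, 655 and 555 CPM with CGACys (log2 difference 0.44, 95% interval 0.18 to 0.70, adjusted p = 0.0973). Among 16 tested CC chemokine and receptor genes 3 were higher with CGACys, where 1.02% of all tested genes were, and none lower. Ccl5, the RANTES chemokine (ENSMUSG00000035042, chromosome 11, 83525778 to 83530518), measured 1018, 1072 and 1076 CPM with CACys and 1473, 1437 and 1407 CPM with CGACys, with LPS alone at 618 to 724 CPM (log2 difference 0.45, SE 0.060, adjusted p = 0.000109). Ccl22, a chemokine for regulatory and type 2 helper T cells, measured 53.4, 51.1 and 53.4 CPM with CACys and 71.4, 65.7 and 70.1 CPM with CGACys (log2 difference 0.39, SE 0.075, adjusted p = 0.00376). The third, Ccrl2, a chemerin-binding receptor, had a log2 difference of 0.32 (adjusted p = 0.0158) and was not called without CACys replicate 3 or CGACys replicates 1 and 2 (adjusted p 0.0792 to 0.104).

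Cxcl2, a chemokine that attracts neutrophils, was lower with CGACys. It measured 4349, 4317 and 4073 CPM with LPS alone, 1986, 2163 and 2232 CPM with CACys and 1759.8, 1717 and 1881 CPM with CGACys. Both adducts lay far below LPS alone and did not overlap each other (log2 difference -0.25, SE 0.053, adjusted p = 0.00904). Csf3, the granulocyte colony-stimulating factor gene, was lower in the same order, at 38, 37.3 and 36.4 CPM, 22.2, 22.2 and 25 CPM and 17.4, 18.6 and 14.8 CPM (log2 difference -0.45, SE 0.086, adjusted p = 0.00463). Cxcl2 was not called without CACys replicate 3 or CGACys replicates 1 and 2 (adjusted p 0.0661 to 0.0856), and Csf3 not without CACys replicate 3 (adjusted p = 0.0562).

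Of 23 tested inflammatory cytokine genes 2 were higher with CGACys, where 1.02% of all tested genes were, and Csf3 was lower, where 0.785% were. The count called higher was 0 without CACys replicate 3, without CGACys replicate 1 and without CGACys replicate 2. Cd40, a co-stimulatory receptor of antigen-presenting cells, measured 383, 387 and 351 CPM with CACys and 545, 520.2 and 473 CPM with CGACys (log2 difference 0.46, SE 0.090, adjusted p = 0.0157). Il15, a cytokine for natural killer and memory T cells, measured 94.2, 98.8 and 82.1 CPM with CACys and 125, 123 and 109.8 CPM with CGACys (log2 difference 0.38, SE 0.092, adjusted p = 0.0395). Neither gene's groups overlapped, but Cd40 was not called without CACys replicate 3 or CGACys replicates 1 and 2 (adjusted p 0.0718 to 0.100) and Il15 not without CACys replicates 1 and 3 or CGACys replicates 1 and 2 (adjusted p 0.0841 to 0.178). Cd83, a surface marker of activated antigen-presenting cells that is in none of the lists (ENSMUSG00000015396, chromosome 13, 43785112 to 43803133), measured 10.2, 14.2 and 12.8 CPM with CACys and 21.3, 19.5 and 19.3 CPM with CGACys (log2 difference 0.69, SE 0.13, adjusted p = 0.00272). Every CGACys library of Cd83 lay above every CACys library.

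The classical LPS mediators were not called between the adducts. Tnf overlapped, at 804, 862 and 621 CPM with CACys and 830.3, 769 and 781 CPM with CGACys, and its interval of -0.33 to 0.45 on the log2 scale is wide, with CACys replicate 3 the lowest library. Il1b measured 828 to 936 CPM and 917 to 946 CPM (interval -0.24 to 0.40). Il6 measured 97.7 to 113 CPM and 120.2 to 128 CPM (interval 0.05 to 0.44, adjusted p = 0.229). The anti-inflammatory cytokine gene Il10 had an interval of -0.51 to 0.03, the monocyte chemokine gene Ccl2 of -0.18 to 0.38 and the inducible nitric oxide synthase gene Nos2 of 0.05 to 0.58. The tightest was Ptgs2, the cyclooxygenase 2 gene, at 1620.5, 1543 and 1521 CPM with CACys and 1562, 1648 and 1673 CPM with CGACys, with an interval of -0.04 to 0.16. Among 21 NF-kB subunit and feedback genes none was called, and for all 21 the interval lay within 1.5-fold either way. No call fell among 12 genes of prostaglandin and leukotriene synthesis or 12 of nitric oxide and arginine metabolism.

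The histone genes called between the adducts were higher with CGACys. Replication-dependent histone genes are normally made in S phase without a poly(A) tail, and they form clusters of near-identical copies, so counts of single copies are uncertain. Of 42 listed genes 24 had enough counts to be tested, and 4 of those were called higher, where 1.02% of all tested genes were, and none lower. The median log2 difference over the 24 was 0.62, and most of them were below 10 CPM with wide intervals. Hist1h1c, a linker histone gene (ENSMUSG00000036181, chromosome 13, 23738807 to 23739531), measured 108, 108 and 94.2 CPM with LPS alone, 189, 182 and 158 CPM with CACys and 272, 273 and 239.8 CPM with CGACys. The groups formed separate steps with CGACys highest (log2 difference 0.57, SE 0.068, adjusted p = 3.32e-05). Hist1h1d, another linker histone gene, measured 15.7, 15.1 and 13.1 CPM and 21.6, 23.5 and 21.6 CPM (log2 difference 0.61, SE 0.11, adjusted p = 0.00242). The core histone genes Hist1h2bc and Hist1h4i had log2 differences of 0.63 (adjusted p = 0.00310) and 0.66 (adjusted p = 0.00192). The 4 genes stayed uncalled between the parent acids, and the difference of differences was called for 5 of the 24, all positive, where 1.09% of all tested genes were positive calls.

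Replication and mitosis genes were not called. None of 37 tested genes of DNA replication and S phase and none of 29 mitosis genes passed, and the interval lay within 1.5-fold for 36 and 29 of them. Of 15 tested D cyclin, G1 kinase and Myc family genes 2 were higher, where 1.02% of all tested genes were. Ccnd2, a D-type cyclin that drives entry into the cycle (ENSMUSG00000000184, chromosome 6, 127125162 to 127152188), measured 6.02, 7.54 and 6.36 CPM with LPS alone, 12.7, 15.2 and 13.7 CPM with CACys and 24, 23 and 19.5 CPM with CGACys (log2 difference 0.68, SE 0.11, adjusted p = 0.000696). Mxd1, a transcriptional repressor that competes with Myc for its partner Max, measured 77.5 to 99.9 CPM with CACys and 111 to 136 CPM with CGACys (log2 difference 0.45, SE 0.089, adjusted p = 0.00882), and was not called without CGACys replicates 1 and 2 (adjusted p 0.0547 to 0.0624). Mxd1 also lost its call under 1 alternative way of processing all its libraries (adjusted p = 0.165). Cdkn1a, the p21 inhibitor of cyclin-dependent kinases and a p53 target, measured 481, 492 and 468 CPM with CACys and 609, 583 and 562 CPM with CGACys (log2 difference 0.29, SE 0.052, adjusted p = 0.00244). Both Ccnd2 and Cdkn1a were higher in every CGACys library than in any CACys library. Of 20 tested p53 targets only Cdkn1a and Sesn2 were called, both higher, where 1.02% of all tested genes were.

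Some macrophage surface genes were lower with CGACys. Of 11 macrophage markers tested 4 were lower, where 0.785% of all tested genes were, none was called higher, and 3 had a positive log2 difference. A wider list of 22 macrophage identity genes held the same 4 lower calls and 1 higher call, and 10 of the 22 had a positive value, with a list median of -0.04. The higher call was Mitf, a transcription factor gene chosen for mention after its values were seen (log2 difference 0.21, SE 0.053, adjusted p = 0.0316). Adgre1, which encodes the F4/80 antigen (ENSMUSG00000004730, chromosome 17, 57358581 to 57483529), measured 375, 367 and 368 CPM with LPS alone, 263, 253 and 251 CPM with CACys and 209, 211 and 224 CPM with CGACys (log2 difference -0.25, SE 0.052, adjusted p = 0.00723). Lyz2, the lysozyme gene, measured 569, 595 and 647 CPM and 486, 463 and 486 CPM (log2 difference -0.34, SE 0.058, adjusted p = 0.00156). Cd14, the LPS co-receptor, measured 1061, 1029.6 and 1088 CPM and 913, 885 and 877 CPM (log2 difference -0.25, SE 0.046, adjusted p = 0.00256). In Adgre1, Lyz2 and Cd14 the CGACys libraries were the lowest of the 3 groups and did not overlap CACys. Itgam, the CD11b integrin gene, had a log2 difference of -0.18 (adjusted p = 0.0267) and was not called without CACys replicates 1, 2 and 3 or CGACys replicates 2 and 3 (adjusted p 0.0524 to 0.156), and Adgre1 was not called without CGACys replicates 1 and 2 (adjusted p 0.0570 to 0.0655). Spi1, which encodes the myeloid master regulator PU.1, had an interval of -0.08 to 0.08 around a log2 difference of 0.00.

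The summed level of the 11 macrophage markers was 5376 to 5479 CPM with CACys, 4958 to 4997 CPM with CGACys and 6106 to 6273 CPM with LPS alone. In bulk RNA, fewer cells of a type and less RNA per cell cannot be told apart. Markers of other cell types summed to low levels, and their part in the results was not tested. Fibroblast markers summed to 5.62 to 7.27 CPM with CACys and 8.31 to 8.54 CPM with CGACys, with 3 of 10 tested, none called, and Col3a1, Col6a2 and Thy1 at 0 in all 6 adduct libraries. Lymphocyte markers summed to at most 1.83 CPM with 1 of 10 tested and Cd8a and Ncr1 among those at 0, and epithelial markers to at most 0.678 CPM with none of 8 tested and Cdh1 at 0. Neutrophil and mast cell markers summed to 6.91 to 10.4 CPM with CACys and 5.89 to 8.02 CPM with CGACys, with 3 of 10 tested, none called, and Elane, Mcpt4, Mpo, S100a9 and Tpsb2 at 0.

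Of 17 tested scavenger, sialic acid and lectin receptor genes 2 were lower, where 0.785% of all tested genes were, and none higher. Marco, a scavenger receptor for bacteria and particles (ENSMUSG00000026390, chromosome 1, 120474538 to 120505024), measured 387, 394 and 419.6 CPM with LPS alone, 356, 351 and 392 CPM with CACys and 249.6, 235 and 255 CPM with CGACys. CACys libraries lay in or close to the range of LPS alone, and CGACys libraries well under both. Marco was 1.49-fold lower with CGACys (log2 difference -0.57, SE 0.057, adjusted p = 1.82e-06). Cd33, a sialic acid-binding inhibitory receptor, measured 35.2, 32 and 30.3 CPM and 24, 26.8 and 27 CPM (log2 difference -0.32, SE 0.081, adjusted p = 0.0316), and was not called without CACys replicates 1 and 2 or CGACys replicates 1 and 2 (adjusted p 0.0768 to 0.197). Of 22 tested Toll-like receptor and LPS receptor genes, Cd14 was lower and Tlr1 higher, where 0.785% and 1.02% of all tested genes were. Tlr1, a co-receptor for lipopeptides, had a log2 difference of 0.30 (SE 0.064, adjusted p = 0.0115). It was not called without CACys replicate 1 or CGACys replicate 3 (adjusted p 0.0754 to 0.0761).

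Among called genes that code for protein and average 50 or more counts in the higher group, the largest fold was that of Krt16, a keratin gene induced in stressed epithelium (ENSMUSG00000053797, chromosome 11, 100246091 to 100248902). It measured 2.59, 2.79 and 3.07 CPM with LPS alone, 8.58, 7.37 and 7.99 CPM with CACys and 16.7, 17.8 and 15.2 CPM with CGACys. Its 3 groups did not overlap, and CGACys was 2.08-fold above CACys (log2 difference 1.06, SE 0.15, adjusted p = 0.000109). Serpinb2, plasminogen activator inhibitor 2, a product of activated macrophages (ENSMUSG00000062345, chromosome 1, 107500892 to 107525600), ran the other way, with 51.2, 51 and 54.7 CPM with LPS alone, 23.8, 22.7 and 26.2 CPM with CACys and 15.9, 16.9 and 14.9 CPM with CGACys. The CGACys libraries of Serpinb2 were the lowest, 1.52-fold below CACys (log2 difference -0.61, SE 0.11, adjusted p = 0.00220).

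Other genes among the 12 with the largest fold in each direction were Heatr9, Gypc and Gm12250 on the higher side and Rhoq, Gmip, Gpsm1, Napepld and Pusl1 on the lower side. Heatr9 measured 7.86, 8.85 and 9.22 CPM with CACys and 16.4, 14.5 and 13.8 CPM with CGACys (log2 difference 0.78, SE 0.14, adjusted p = 0.00232). Rhoq, a small GTPase gene, measured 191, 179 and 196 CPM with LPS alone, 122, 117 and 124 CPM with CACys and 84.3, 88.6 and 92 CPM with CGACys (log2 difference -0.46, SE 0.051, adjusted p = 4.02e-06). Gmip, which encodes a GTPase-activating protein, measured 63.5, 58.3 and 59.8 CPM with CACys and 42.5, 43 and 44.9 CPM with CGACys (log2 difference -0.48, SE 0.063, adjusted p = 4.53e-05). These groups did not overlap in any of the 3 genes. Gypc, Gm12250, Gpsm1, Napepld and Pusl1 had log2 differences of 0.58, 0.62, -0.45, -0.48 and -0.58, and each lost its call with some adduct library left out, with an adjusted p of up to 0.194, 0.179, 0.193, 0.262 and 0.226.

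**Figure D4:**
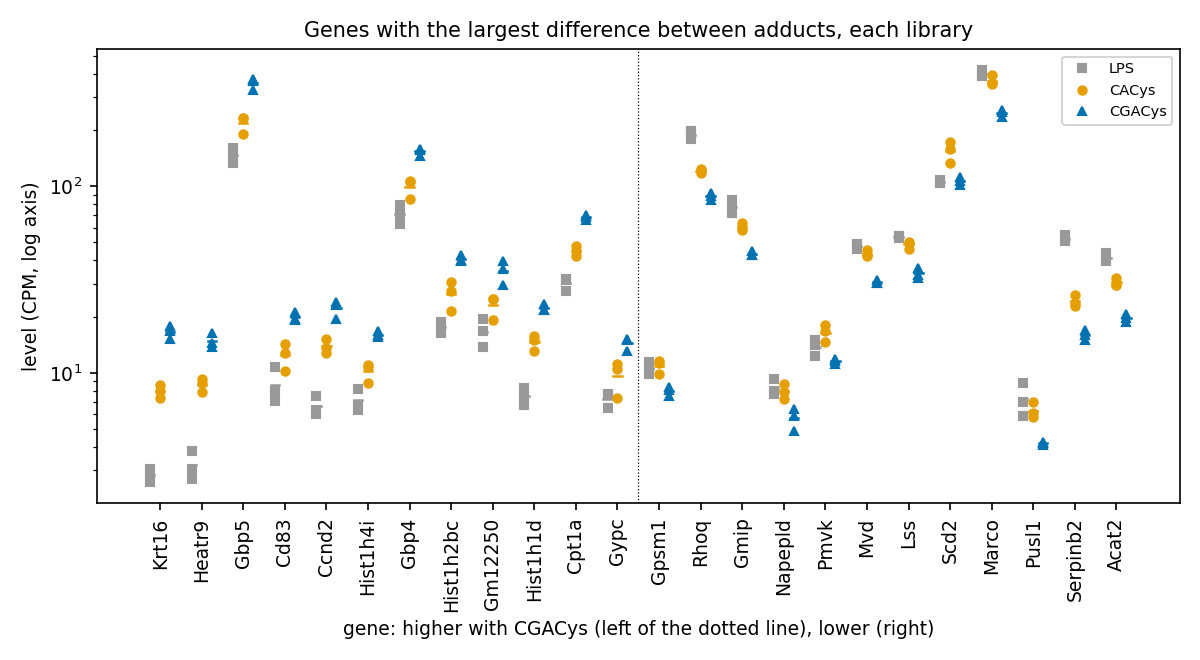
Level of each gene in each library (CPM, log axis) for 12 called genes in each direction, those of largest fold (x axis, higher with CGACys left of the dotted line and lower right of it), with LPS alone (grey squares), CACys (orange circles), CGACys (blue triangles) and bars at group means. Krt16 and Heatr9 show CACys between LPS alone and CGACys, and Acat2, Serpinb2 and Rhoq show CACys between LPS alone and a lower CGACys.

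NRF2 targets did not differ by call between the adducts. None of 39 tested targets was called, the median log2 difference was 0.03, and for 36 of the 39 the interval lay within 1.5-fold either way. Hmox1, the heme oxygenase gene, measured 2017, 2024 and 2358 CPM with LPS alone, 2401, 2665 and 3448 CPM with CACys and 3154, 3047 and 3466 CPM with CGACys. The CGACys libraries overlapped the CACys libraries, and the interval was -0.10 to 0.46 (adjusted p = 0.603). Nqo1 had an interval of -0.12 to 0.26, Gclm of -0.07 to 0.17, Slc7a11 of -0.11 to 0.26 and Srxn1 of 0.06 to 0.31. Between the parent acids 14 of the 39 were lower with CGA than with CA and none was higher, where 0.747% of all tested genes were lower, with a median of -0.23. The difference of differences was called for 10 of the 39, all positive, where 1.09% of all tested genes were positive calls. Srxn1, the sulfiredoxin gene, was one of these, with a log2 difference of 0.18 between adducts, -0.37 between parents and 0.56 for the difference of differences (adjusted p = 0.000514).

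A few stress and signalling feedback genes were called, all of those named here higher with CGACys. Atf3, a stress-induced transcription factor that restrains inflammatory genes (ENSMUSG00000026628, chromosome 1, 191170296 to 191183333), measured 325, 321 and 314 CPM with LPS alone, 434, 417 and 396 CPM with CACys and 525, 496 and 497 CPM with CGACys (log2 difference 0.28, SE 0.046, adjusted p = 0.000717). It was the gene of lowest adjusted p among 28 immediate early genes. Of these, 3 were called higher, where 1.02% of all tested genes were. The other calls were Nr4a1 and Rgs2 (0.52 and 0.34 on the log2 scale). Dusp5, a phosphatase that switches off ERK, measured 112 to 117 CPM with CACys and 137 to 159 CPM with CGACys (log2 difference 0.36, SE 0.067, adjusted p = 0.00328). Dusp1, a phosphatase for p38 and JNK, had a log2 difference of 0.26 (adjusted p = 0.0117). Txnip, an inhibitor of thioredoxin that responds to glucose, measured 335, 316 and 299.7 CPM and 404, 398 and 377 CPM (log2 difference 0.31, SE 0.048, adjusted p = 0.000479), and its arrestin-domain relative Arrdc3 had a log2 difference of 0.48. Nr4a1 was not called without CACys replicates 2 and 3 or CGACys replicates 1 and 2 (adjusted p 0.0854 to 0.158), Rgs2 without CACys replicates 1, 2 and 3 or CGACys replicates 1, 2 and 3 (adjusted p 0.0544 to 0.155), Dusp1 without CACys replicate 3 or CGACys replicate 1 (adjusted p 0.100 to 0.124) and Arrdc3 without CACys replicates 2 and 3 or CGACys replicates 1 and 2 (adjusted p 0.0822 to 0.226).

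A few metal transport genes were called as well. Slc30a1, the zinc exporter gene (ENSMUSG00000037434, chromosome 1, 191906697 to 191913248), measured 140.4, 134 and 129.9 CPM with CACys and 166, 176 and 173 CPM with CGACys (log2 difference 0.35, SE 0.048, adjusted p = 9.22e-05). It was the only call among 12 metallothionein and zinc transporter genes, where 1.8% of all tested genes were called. Slc40a1, the iron exporter ferroportin, measured 196, 186 and 234 CPM with CACys and 252, 252 and 281 CPM with CGACys (log2 difference 0.35, SE 0.073, adjusted p = 0.0142). Both exporters were higher in every CGACys library. Tfrc, the transferrin receptor that takes up iron, was lower (log2 difference -0.16, SE 0.042, adjusted p = 0.0446). Of 15 tested heme and iron handling genes 1 was called higher and 1 lower, where 1.02% and 0.785% of all tested genes were. The other 13 were not called, and the list median was -0.01. Tfrc was not called without CACys replicates 1, 2 and 3 or CGACys replicates 1 and 2 (adjusted p 0.0643 to 0.243), nor Slc40a1 without CACys replicates 1 and 2 or CGACys replicate 3 (adjusted p 0.0563 to 0.0635). Slc40a1 also lost its call under 1 alternative way of processing all its libraries (adjusted p = 0.168).

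Calls in the remaining lists were small. Ndrg1, a hypoxia-induced gene, had a log2 difference of 0.26 (adjusted p = 0.00173). Pfkp, a glycolytic phosphofructokinase gene, had 0.17, Serpinb9, an inhibitor of granzyme B, 0.19, Sesn2, a stress-induced sestrin, 0.26, Aim2, a sensor of cytosolic DNA, 0.26, Hspa4l, a heat shock protein gene, 0.38, and Mat2a, which makes S-adenosylmethionine, -0.18. Of these 7 genes only Ndrg1 kept its call whichever adduct library was left out. Adjusted p reached 0.258 for Pfkp, 0.217 for Serpinb9, 0.256 for Sesn2, 0.190 for Aim2, 0.115 for Hspa4l and 0.186 for Mat2a. No gene was called among 25 proteasome subunits, 21 chaperones and unfolded protein response genes of the endoplasmic reticulum, 25 lysosome genes and 19 genes of the tricarboxylic acid cycle.

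The parent acids gave the same change of structure without cysteine, in libraries that the adduct comparison does not use. CGA against CA gave 183 calls (1.38% of tested genes), 84 higher and 99 lower with CGA. That count was 448 without CA replicate 1, 87 without CA replicate 2, 1063 without CA replicate 3, 87 without CGA replicate 1, 45 without CGA replicate 2 and 57 without CGA replicate 3. The genes called in both comparisons numbered 14, which is 5.86% of the adduct calls and 7.65% of the parent calls. All 14 differed in opposite directions, and across all tested genes the 2 sets of log2 differences had a Pearson r of -0.06 and a Spearman correlation of 0.01, over genes that are not independent replicates. The 14 were Marco, Serpinb2, Rassf2, Adgre1, Cd33, Fmnl1 and Arap3, lower with the chlorogenic form as adduct and higher as parent acid, and Slc40a1, Slc30a1, Adh7, Kitl, Atf3, Bid and Otulin, higher as adduct and lower as parent. With other choices of model the number and the directions shifted, from none called in both when only the groups compared were modelled to 63 without an expression filter, of which 36 went in opposite directions.

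Marco had the lowest adjusted p of the 14 for the difference of differences. In the parent groups it measured 300.0, 308 and 259 CPM with CA and 413, 393 and 379 CPM with CGA, a log2 difference of 0.45 (SE 0.057, adjusted p = 0.000170), against -0.57 between the adducts. Serpinb2 measured 45.4, 33.2 and 33.8 CPM with CA and 59.8, 52.6 and 60.3 CPM with CGA (log2 difference 0.62, adjusted p = 0.000624), against -0.61 between the adducts. In both genes the CGA libraries lay above the CA libraries while the CGACys libraries lay below the CACys libraries. Slc40a1 crossed the other way, with 263, 234 and 246 CPM with CA and 202, 185 and 184 CPM with CGA (log2 difference -0.38, adjusted p = 0.0111). The difference of differences was -1.02 for Marco, -1.23 for Serpinb2 and 0.73 for Slc40a1 (adjusted p = 8.45e-09, 1.58e-05 and 0.000405).

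**Figure D5:**
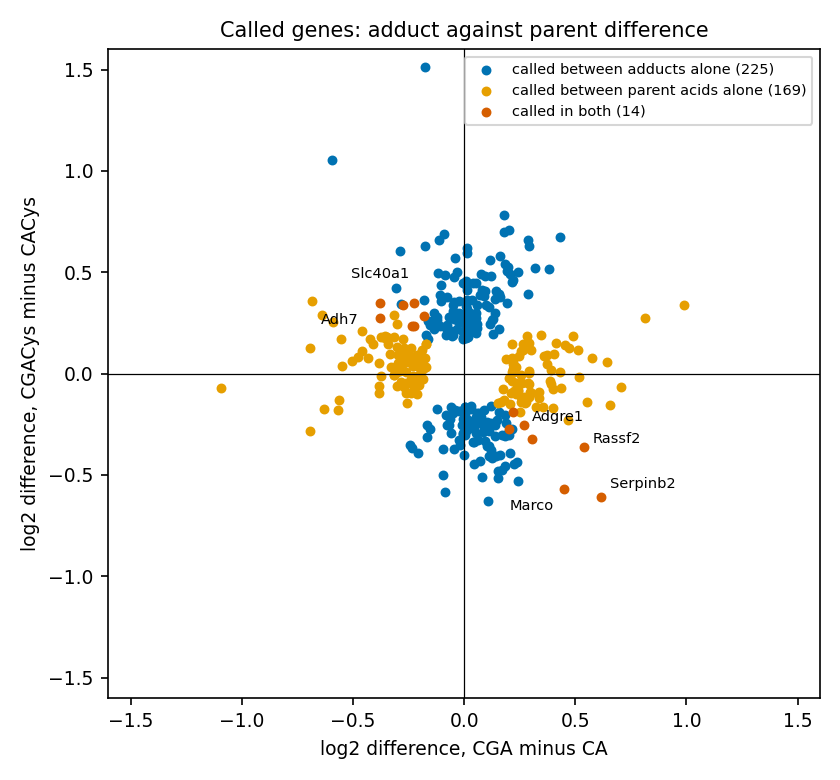
Log2 difference CGA minus CA (x axis) against log2 difference CGACys minus CACys (y axis) for genes called between adducts and not between parents (blue, 225), between parents and not between adducts (orange, 169) or in both (red, 14). All 14 red points lie in the upper left and lower right of the plot; 3 called genes lie outside the axes.

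Beside LPS alone, CGACys gave 3854 calls (29.1% of tested genes, 2130 higher and 1724 lower) and CACys gave 1890 (14.3%, 1128 higher and 762 lower). The 2 comparisons share the 3 LPS libraries and each adduct's own libraries enter the adduct comparison, so these counts are given side by side without a test of their difference. Krt16 had a log2 difference from LPS alone of 2.55 with CGACys and 1.5 with CACys. Cpt1a had 1.17 and 0.58, Serpinb2 -1.72 and -1.11, and Acat2 -1.07 and -0.44, each called for both adducts. Other genes were called against LPS alone with CGACys and not with CACys, such as Lss with -0.65 and -0.14, Cyp51 with -0.38 and -0.03, and Marco with -0.70 and -0.13. Scd2 was the reverse, called with CACys at 0.55 and not with CGACys at 0.02. Without CACys replicate 1 the CACys count was 1249, and without CACys replicate 2 it was 1223.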

How the data were processed

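Total RNA of 18 libraries, 3 for each of 6 groups, was sequenced, and the values deposited by the authors are raw read counts per Ensembl gene, whole numbers that were not normalized. Per the submitters' processing notes the mm10 genome, HISAT and DESeq2 were used, without versions or roles; the counting program, strand and annotation release are not given in the sources used here. The table held 54532 genes, 26742 of them with no count, and library totals of 16105817 to 25624935 counts. Counting error is small at this depth for most genes and large for those below about 1 CPM.

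Counts were fitted with edgeR 4.0.16 in R 4.3.3 in 1 model of the 6 groups, with TMM scaling and filterByExpr (13251 genes kept). Each of 5 contrasts was tested with the quasi-likelihood F test and Benjamini-Hochberg adjustment over all tested genes, with calls at 0.05. SE is the size of the log2 difference over the square root of F, and intervals are at 95%. Levels are CPM from TMM-scaled library sizes. Symbols and coordinates came from a RefSeq table of build GRCm38.p6 (12608 tested genes matched by symbol, 643 not). Groups came from the treatment labels.

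Genes were named by rule: in each direction the 12 called genes of largest fold that code for protein, average 50 or more counts in their higher group and do not overlap; from every list described, up to 4 called genes of lowest adjusted p; and 16 fixed genes. Any other gene is marked as picked with its values in view, and a few genes are not reported here. Members and the 48 gene lists, from general knowledge, were chosen with earlier results of these data known.

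Alternatives were RLE or upper-quartile factors, no filter, at least 1 CPM in 3 or more libraries, a term for replicate number, only the groups compared, the 15 libraries with LPS, DESeq2 1.42.0 and leaving out each library with LPS. Only 1 library was left out at a time. Leaving out CA replicate 2 was added after the data were seen. No libraries were near-identical within a group. Over all tested genes, same-numbered CGACys and CACys libraries had correlations of their deviations of -0.01, -0.03 and 0.03, so numbers were not used as pairs. Such correlations were not computed for single gene lists. Sequences were not used here.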

Additional observations from a re-analysis of the deposited data

Results flagged for a closer look

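The difference between the adducts (CGACys minus CACys) differed from that between the parent acids (CGA minus CA) for 289 genes (2.18% of those tested), 145 positive and 144 negative, by a test of the difference of differences in the same edgeR model. Of the 82 genes that the naming rule picked, 41 were among them, 39 of which were also called between the adducts. Those 39 were picked for their adduct difference, which is one of the 2 terms of this test, so the count is not independent of it. Values below are log2 differences of differences, and a negative value means lower with CGACys relative to CACys than with CGA relative to CA.

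Among sterol and fatty acid genes the values were -0.74 for Acat2, -0.59 for Mvd, -0.67 for Lss and -0.33 for Cyp51 in cholesterol synthesis, -0.77 for Scd2, -0.50 for Fads2 and -0.31 for Fads1 in desaturation and 0.58 for Cpt1a in fatty acid oxidation. Macrophage surface and lysozyme genes were all negative, with -1.02 for Marco, -0.63 for Cd33, -0.52 for Adgre1, -0.38 for Lyz2, -0.35 for Cd14 and -0.27 for Itgam. The serpins and the keratin gave 1.65 for Krt16, -1.23 for Serpinb2 and 0.36 for Serpinb9. Histone genes gave 0.61 for Hist1h1c, 0.90 for Hist1h1d, 0.80 for Hist1h2bc and 0.77 for Hist1h4i.

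Immune genes gave 0.45 for Ccl5, 0.78 for Cd83, -0.67 for Csf3, 0.38 for Aim2, 0.34 for Tlr1 and 0.35 for H2-Q4. Stress, feedback and cycle genes gave 0.46 for Atf3, 0.54 for Dusp5, 0.63 for Rgs2, 0.36 for Txnip, 0.33 for Cdkn1a and 0.41 for Ndrg1. Metal transport genes gave 0.57 for Slc30a1, 0.73 for Slc40a1 and -0.28 for Tfrc. The genes of a small GTPase, a GTPase-activating protein and a phospholipase gave -0.64 for Rhoq, -0.65 for Gmip and -0.63 for Napepld. The NRF2 targets Srxn1 and Gclm, which were not called between the adducts, gave 0.56 for Srxn1 and 0.32 for Gclm.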

How the results depend on the processing

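The 239 calls between the adducts became 409 without an expression filter, 560 with only the groups compared, 386 with DESeq2 and 629 without CA replicate 2, and 87 to 198 with 1 adduct library left out. CGA against CA went from 183 to 614 without a filter, 3 with only the groups compared, 85 with the 15 LPS libraries and 419 with DESeq2, and 45 to 1063 with 1 library left out. The difference of differences went from 289 to 457, 166 and 443 without a filter, with only the groups compared and with DESeq2, and 162 to 519 with 1 library left out. CGACys against LPS gave 3063 to 3326 and CACys against LPS 1223 to 1694 with 1 library left out. The 10 interferon-stimulated genes became 27 without a filter, 20 with only the groups compared, 20 with DESeq2 and 3 to 12 with 1 library left out. The 4 histone genes became 8 with only the groups compared and 4 to 5 with 1 library left out, the 4 macrophage markers 2 to 3 (6 without CA replicate 2), and the 15 cholesterol genes 10 to 14. The cause of these shifts was not tested. Over all tested genes same-numbered adduct libraries did not vary together, but a shared replicate effect within single gene lists was not tested. With the replicate number as a block there were 273 calls between the adducts and 26 interferon-stimulated genes. No gene called in any of the 5 comparisons changed sign under an alternative that gave it a value. The uncalled genes Nqo1 and Tnf changed sign with 1 adduct library left out, Nqo1 over log2 differences of -0.0090 to 0.19 and Tnf over -0.071 to 0.16. Of the 67 called genes that the naming rule picked, 11 lost their call with the 15 LPS libraries, 3 with the replicate block, 2 without a filter, 2 with only the groups compared, 1 with upper-quartile factors, none with RLE factors, none with the 1 CPM filter and none of 62 with a value in DESeq2, but 12 to 29 with 1 adduct library left out. Depth limits the histone list and genes below about 1 CPM.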

Other observations

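The genes in this section were chosen after their values were seen. Lipid genes lower with CGACys were Aacs, which makes acetoacetyl-CoA in the cytosol (55.6, 50.3 and 56.4 CPM with CACys and 42.7, 39.2 and 39.6 CPM with CGACys, adjusted p = 0.00116), Pcyt2, of phosphatidylethanolamine synthesis (log2 difference -0.33, adjusted p = 0.0133), and Fabp5, a fatty acid-binding protein gene (log2 difference -0.26, adjusted p = 0.0259). Plin2, which coats lipid droplets, was higher, at 231, 224 and 237 CPM with CACys and 326, 307 and 307 CPM with CGACys (log2 difference 0.44, adjusted p = 0.00161). Its groups did not overlap.

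A pair of histone genes not tied to S phase were higher too. H3f3b, which encodes the replacement histone H3.3, measured 2732, 2855 and 2577 CPM with CACys and 3478, 3338 and 3189 CPM with CGACys (log2 difference 0.29, adjusted p = 0.00141). H1f0, a linker histone gene, measured 345, 386 and 351 CPM and 478, 471 and 438 CPM (log2 difference 0.36, adjusted p = 0.000799). Of immune surface genes, Cd274, the PD-L1 checkpoint ligand, had a log2 difference of 0.34 (adjusted p = 0.0142), Icam1, an adhesion molecule, 0.30 (adjusted p = 0.0236), and Il15ra, the interleukin 15 receptor alpha chain, 0.49 (adjusted p = 0.0143). Ndnf and 1700007J10Rik had the largest fitted folds of all called genes but levels of at most 2.54 CPM and 0.536 CPM in any adduct library.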
